A study of Gallus gallus with 6 samples.

Results

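The genes described here make cholesterol and fatty acids or regulate that synthesis, and were measured by RNA sequencing in embryos of the chicken, collected whole at Hamburger-Hamilton stage 10. They were taken from a list of 32 genes, matched by chicken RefSeq symbol to the NCBI gene numbers of the files. Of these, 29 were found among 24098 genes: 6 of 7 mevalonate pathway genes, 9 of 11 late sterol genes, all 8 fatty acid genes and all 6 regulators. IDI1, TM7SF2 and EBP had no match by symbol and were not analysed here. Genes were tested where they averaged 1 FPKM or more over the 6 libraries, and all 29 did. FPKM is a read count scaled to the length of the gene and the depth of the library.

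The study compared 3 control libraries with 3 libraries of embryos treated with zinc oxide (ZnO) nanoparticles, particles that can release zinc ions, and its title concerns the cranial neural crest and oxidant stress. Both groups were whole embryos of the same stage, with no genotype or strain named. The labels name no dose, route or length of exposure, and do not say whether a library is 1 embryo or a pool, so p-values cover only how far these samples scatter, and that scatter may be technical. The stage label gives a window from 34 hours to 39, 40 and 41 hours in control 1, 2 and 3, and to 42, 43 and 44 hours in ZnO 1, 2 and 3, rising by 1 hour from sample to sample. If these ends are ages, age and treatment cannot be told apart.

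Cholesterol is built from acetyl-CoA in a long chain of steps. The mevalonate branch makes the isoprenoid farnesyl diphosphate, and the late sterol enzymes join farnesyl units into squalene, close it into lanosterol and trim that to cholesterol. Fatty acids are built from the same acetyl-CoA by a carboxylase and a synthase and are then elongated and desaturated. Many of these genes share a control. SCAP carries the SREBP transcription factors (genes SREBF1 and SREBF2) out of the endoplasmic reticulum when sterol is low, and INSIG proteins hold them back when it is high. In embryos, cholesterol is also needed to modify and transduce Hedgehog signals. The avian embryo receives much of its lipid from yolk through the yolk sac endoderm.

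Depth was 18208501 to 19843561 reads per library, and the members had between 237 and 8160 reads in any library, which sets their counting error. Markers of neural tube, crest, somite, heart, notochord, gut endoderm and blood were detected, as the label of a whole embryo implies, though not each marker in each library. Of 9 blood markers 8 were found, and HBE1 was at 0 in control 1, ZnO 1 and ZnO 3. The gut endoderm marker CLDN18 was at 0 in control 2 and ZnO 3. All 10 markers of yolk sac endoderm were detected, none of them at 0 in any library, though RBP4 had only 1 to 15 reads. Their summed level was 7713, 11089.9 and 4799 FPKM in control 1, 2 and 3, and 9188, 4157 and 6839 FPKM in ZnO 1, 2 and 3. The library labelled ZnO 1 stood apart from the other treated libraries. The zinc-induced metallothionein genes MT3 and MT4 summed to 261 FPKM in ZnO 1, against 258 to 302 FPKM in the controls, against 1192 and 1653 FPKM in ZnO 2 and ZnO 3. Its 65 ribosomal protein genes summed to 55998.5 FPKM, against 80163 to 103055 FPKM elsewhere. Over all genes its values summed to 480047 FPKM, against 531480 to 559992 FPKM elsewhere. Values without ZnO 1 are therefore given beside those with it.

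No gene of either pathway passed the test, and the classes are described by direction, taken from the mean log2 level of each group. All 6 mevalonate genes and all 9 late sterol genes had lower means in treated embryos, with median log2 fold changes of -0.20 and -0.42. Without ZnO 1, 5 and 8 of them did, with medians of -0.16 and -0.43. Of 8 fatty acid genes, 5 were lower and 3 higher (median -0.06), and of 6 regulators 3 were lower and 3 higher (median -0.06). Without ZnO 1, 4 of 8 fatty acid genes were lower (median -0.07) and 5 of 6 regulators (median -0.27). The side on which the regulators lay depended on the library left out. Their median was 0.04 without control 2, 0.06 without ZnO 2 and 0.03 without ZnO 3. It was -0.08 without control 1 and -0.18 without control 3. With TPM or median-ratio scaling all 15 sterol genes stayed lower, while the fatty acid genes divided 4 to 4. With TPM the medians were -0.14 for mevalonate, -0.36 for late sterol and 0.002 for regulator genes, where that of all genes was 0.02. On the FPKM scale the median over all 13311 genes tested was -0.03, and 56.1% of genes were lower. With limma on log2(FPKM + 1), two-sided and adjusted by Benjamini-Hochberg over all genes, 0 of 29 members and 0% of all genes had an adjusted p under 0.05, and limma-voom on reads recovered from the FPKM values also gave 0. At an unadjusted p under 0.05 there were 5 members, all lower in treated embryos, where 2.61% of all genes were lower and 3.06% higher at that level. The count of lower members was 10 without ZnO 1, where 8.69% of all genes were lower at that level, and 3 without control 2, where 1.3% were. Without ZnO 1, 0 members passed and 0.0301% of all genes did, while 22 of 29 members and 51.3% of all genes were lower.

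**Figure D1:**
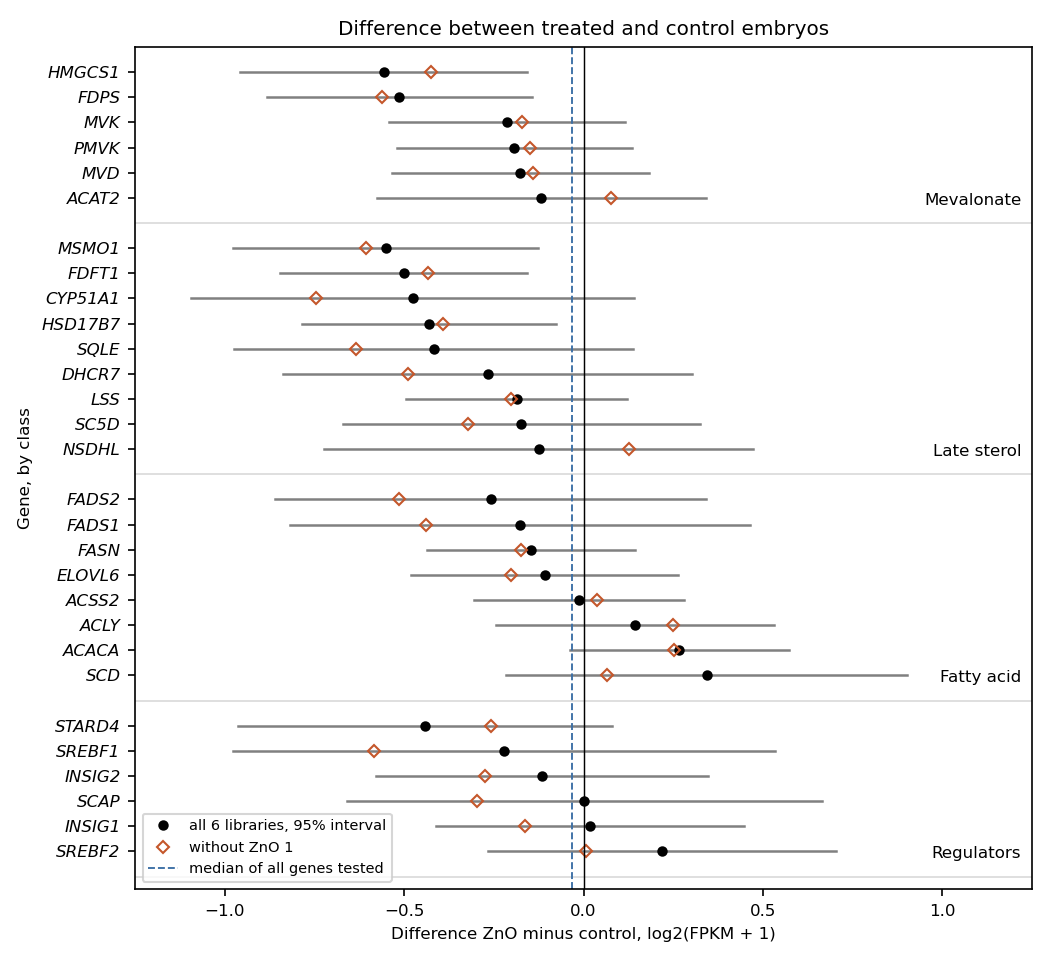
Difference between treated and control embryos for each of the 29 genes on the log2(FPKM + 1) scale (horizontal axis), with the 95% interval from limma, and the value without ZnO 1 as an open diamond. All 15 mevalonate and late sterol genes lie left of 0 with 6 libraries, and ACAT2 and NSDHL move right of 0 without ZnO 1.

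In 8 of 29 members every treated library lay below every control, where 5.89% of all genes did so. They were HMGCS1, PMVK and FDPS of the mevalonate branch, FDFT1, LSS, MSMO1 and HSD17B7 of the late sterol steps, and FASN. In 1 member, ACACA, every treated library lay above every control, against 5.6% of all genes. When values were rescaled to the same sum in each library (TPM), the count below controls was 5, without LSS, MSMO1 and FASN. On that scale ACLY joined ACACA above controls, and the share of all genes was not counted. Without ZnO 1 the count below controls was 13, adding SQLE, CYP51A1, DHCR7, FADS2 and SREBF1. However, 18.2% of all genes then lay below all controls and 16.6% above, so the counts of 13 and 8 cannot be compared directly.

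In the mevalonate branch the summed level of the 6 genes was 501, 526 and 545 FPKM in control 1, 2 and 3, and 399.9, 427 and 449.8 FPKM in ZnO 1, 2 and 3. Every treated library lay below every control, and the treated mean was 18.8% lower (16.4% lower in ZnO 2 and ZnO 3 alone). On the TPM scale the sums were 936, 990 and 974 in control 1, 2 and 3, and 833, 784 and 837 in ZnO 1, 2 and 3. HMGCS1 and FDPS had larger fold changes than the kinases and the decarboxylase between them, a contrast that was not tested. The isomerase gene IDI2, not a member and described below, had a log2 fold change of -0.46. In bulk tissue, fewer cells of a type and less RNA per cell cannot be told apart.

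HMGCS1 (gene ID 396379), which makes HMG-CoA at the entry to the pathway, had 55.1, 49.4 and 55.8 FPKM in control 1, 2 and 3, and 29.7, 35.9 and 43.4 FPKM in ZnO 1, 2 and 3. The groups did not overlap, and ZnO 1 was the lowest. The treated mean was 31.96% lower, a log2 fold change of -0.56 ± 0.17 SE with a 95% interval of -0.96 to -0.16 (limma adjusted p = 0.817, and 0.285 without ZnO 1). HMGCS1 lies on chromosome Z in the RefSeq table of assembly GRCg7b, and birds compensate the Z dose only in part. The median level of 556 Z-linked genes was 9.42, 9.57 and 8.15 FPKM in control 1, 2 and 3, and 7.52, 7.69 and 8.65 FPKM in ZnO 1, 2 and 3. The summed level of 35 genes of the female-specific W was 821, 425 and 1194 FPKM in the controls, against 707, 1101 and 875.5 FPKM in treated libraries, so the W-linked level differed between libraries of both groups. The part of the sex chromosomes in the HMGCS1 difference was not tested.

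FDPS (gene ID 425061), which makes farnesyl diphosphate and had the highest control mean of the members, had 129.7, 152 and 162.5 FPKM in the controls, against 110.1, 102 and 96.9 FPKM in ZnO 1, 2 and 3. Every treated library was below every control, with ZnO 3 the lowest. Its treated mean was 30.4% lower (log2 fold change -0.51 ± 0.16 SE, interval -0.88 to -0.14, limma adjusted p = 0.817), and without ZnO 1 the log2 fold change was -0.56 (adjusted p = 0.225).

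The kinase gene MVK (gene ID 768555) had 35.0, 32.4 and 34.6 FPKM in the controls, against 27.5, 27.5 and 32.9 FPKM in treated libraries. ZnO 3 reached into the control range, and the interval of its log2 fold change was -0.54 to 0.12. PMVK, the second kinase of the branch, had 112 ± 1.38 FPKM in the controls, against 98.4 ± 5.05 FPKM in treated embryos (SD, n = 3), with groups that did not overlap. The decarboxylase gene MVD had 121 ± 10.6 and 107 ± 8.67 FPKM, with ZnO 3 at 116.8 FPKM above control 1 at 110.3 FPKM. ACAT2, the cytosolic thiolase that joins acetyl-CoA units, overlapped most. It had 57.2, 49.2 and 60.03 FPKM in the controls, against 38.7, 58.9 and 57.8 FPKM in ZnO 1, 2 and 3, so its lower treated mean came from ZnO 1 alone, and without that library its log2 fold change was 0.08.

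**Figure D2:**
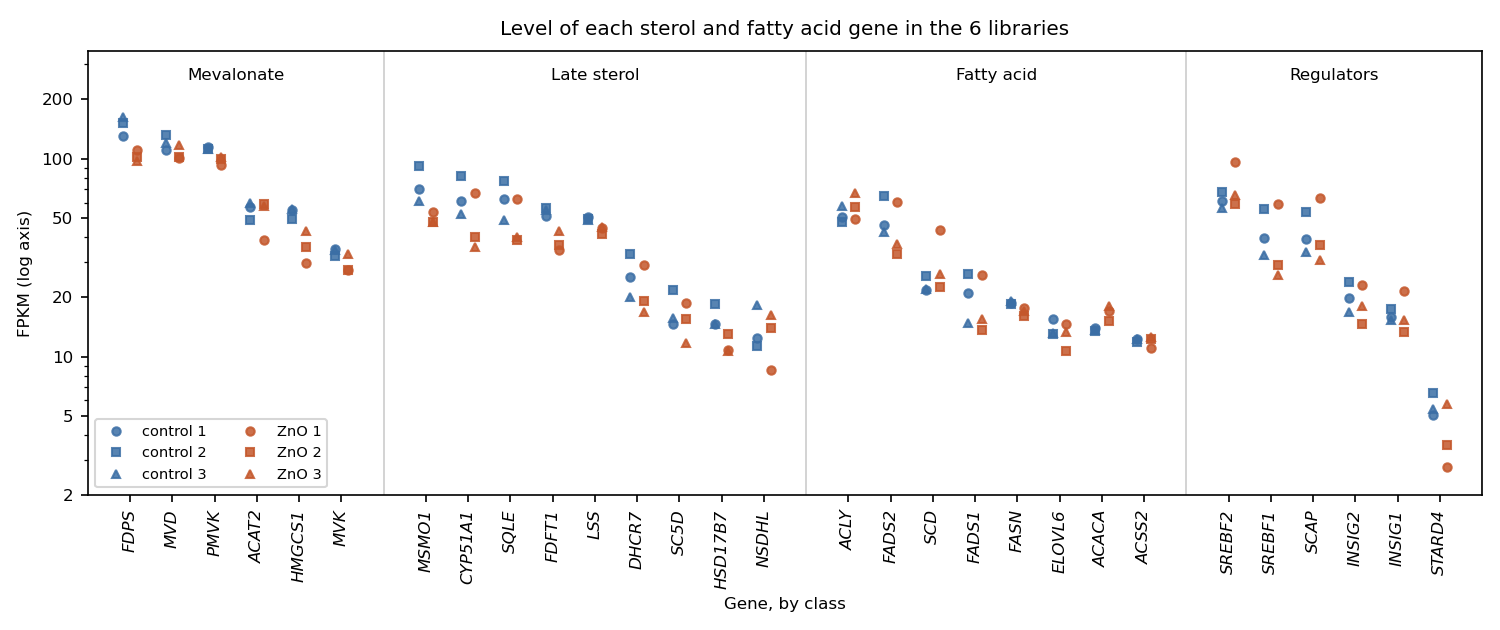
Level of each gene in FPKM (vertical log axis) in the 3 control libraries (blue) and 3 ZnO libraries (orange), by class and ordered by control mean. Treated libraries lie below all controls for HMGCS1, PMVK, FDPS, FDFT1, LSS, MSMO1, HSD17B7 and FASN, and above all controls for ACACA.

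The late sterol genes had a summed level of 363.5, 441 and 335 FPKM in control 1, 2 and 3, and 329, 267 and 266.9 FPKM in ZnO 1, 2 and 3. The treated mean was 24.3% lower, and 29.7% lower in ZnO 2 and ZnO 3 alone. ZnO 1 lay just below control 3, and control 2 was the highest of all libraries. With TPM (ZnO 1 at 686 against 598 in control 3) or median-ratio scaling (333.4 against 332.5) the groups overlapped, whereas the mevalonate sums did not overlap with either. Among the marker sets of tissues, only the somite sum did not overlap between groups. The 5 somite mesoderm markers summed to 122 to 139.8 FPKM in controls and 84.5 to 116 FPKM in treated libraries, 23.7% lower in the mean with groups that did not overlap, and none was at 0. Of these markers 3 were lower and 2 higher. Of the heart markers 5 of 5 were lower in the treated mean, none at 0, and sums of 448 to 657 FPKM in controls and 356 to 481 FPKM in treated libraries. Of the neural markers 6 of 7 were higher, with sums of 55.0 to 96.0 FPKM in controls and 88.1 to 126 FPKM in treated libraries. The heart and neural sums overlapped between groups. So did the crest sums, at 118 to 135 FPKM in controls and 116 to 132 FPKM in treated libraries. Gut endoderm sums (47.8 to 50.7 against 42.6 to 64.2 FPKM) and blood sums (1042 to 1382 against 703 to 2160 FPKM) overlapped too. The part of tissue makeup in the sterol result was not tested. Different kinds of gene are mixed in the late sterol sum. Some lay below every control in each treated library, and some were highest in control 2 and ZnO 1 within their groups. MSMO1 was of both kinds and NSDHL of neither.

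FDFT1 (gene ID 422038), squalene synthase and the first enzyme committed to sterols, was of the first kind. It had 51.1, 56.4 and 55.2 FPKM in the controls, against 34.5, 36.8 and 43.1 FPKM in ZnO 1, 2 and 3. The treated libraries all lay under the lowest control, and the mean was 29.7% lower. Its log2 fold change of -0.50 ± 0.15 SE (interval -0.85 to -0.16) had an adjusted p of 0.801 in limma, the lowest among the members, and 0.273 without ZnO 1.

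MSMO1 (gene ID 422423), the oxidase that begins removal of the methyl groups at carbon 4 of the sterol ring, had 70.7, 92.3 and 60.8 FPKM in the controls, against 53.7, 48.0 and 47.9 FPKM in treated libraries. All treated libraries were lower, while controls ranged widely. Its log2 fold change was -0.55 ± 0.18 SE (limma adjusted p = 0.827), the interval was -0.98 to -0.13, and on the TPM scale the groups overlapped.

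HSD17B7 (gene ID 424367), a ketosteroid reductase of the same demethylation complex, had 14.6, 18.4 and 14.7 FPKM in the controls, against 10.8, 13.1 and 10.6 FPKM in treated libraries. Groups did not overlap, and the log2 fold change was -0.43 ± 0.15 SE (interval -0.79 to -0.08, limma adjusted p = 0.843). NSDHL, the dehydrogenase that acts between those enzymes, overlapped between groups. It had 12.3, 11.3 and 18.3 FPKM in the controls, against 8.52, 14.0 and 16.1 FPKM in ZnO 1, 2 and 3, and without ZnO 1 its log2 fold change was 0.13. LSS, lanosterol synthase, had 49.9 ± 1.05 FPKM in the controls, against 43.7 ± 2.01 FPKM in treated embryos (SD, n = 3), a small difference with groups that did not overlap.

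The squalene epoxidase gene SQLE, the lanosterol demethylase gene CYP51A1 and the reductase gene DHCR7, which makes the last double bond reduction to cholesterol, were of the second kind. SQLE had 62.6, 77.0 and 48.9 FPKM in controls, 62.5 FPKM in ZnO 1, and 38.9 and 40.01 FPKM in ZnO 2 and ZnO 3. CYP51A1 had 61.3, 81.5 and 52.4 FPKM in controls, 66.8 FPKM in ZnO 1, and 40.03 and 35.6 FPKM in ZnO 2 and ZnO 3. In both, ZnO 1 lay within the control range and the other treated libraries below it. DHCR7 had 25.3, 32.8 and 19.9 FPKM in controls, 28.9 FPKM in ZnO 1, and 19.0 and 16.8 FPKM in ZnO 2 and ZnO 3. With 6 libraries the log2 fold changes were -0.42 for SQLE, -0.48 for CYP51A1 and -0.27 for DHCR7 (limma adjusted p from 0.943 to 0.969). Without ZnO 1 they were -0.63, -0.75 and -0.49, with adjusted p of 0.270, 0.227 and 0.333. SC5D, the desaturase before DHCR7, had 17.3 ± 3.91 and 15.3 ± 3.52 FPKM (SD, n = 3), and its groups overlapped.

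The order of libraries in these genes recurred among the members, and it was not particular to them. Over all genes tested, the deviations of control 2 and ZnO 1 from their group means had a correlation of 0.58. Control 2 was the highest control and ZnO 1 the highest treated library in 13 of 29 members, an order chosen after its values were seen, and in 26.6% of all genes tested. By class it held for 0 of 6 mevalonate genes, 5 of 9 late sterol genes (SQLE, CYP51A1, MSMO1, SC5D and DHCR7), 3 of 8 fatty acid genes (SCD, FADS1 and FADS2) and 5 of 6 regulators. The opposite order, with both libraries lowest in their group, held for 6 members, namely ACAT2, HMGCS1, MVK, NSDHL, ACLY and ACSS2, and for 33.5% of all genes. The summed yolk sac endoderm markers, given above, were likewise highest in control 2 among controls and in ZnO 1 among treated libraries. So were the heart sums and those of the 4 notochord and tail bud markers, at 116, 158 and 95.3 FPKM in control 1, 2 and 3 and 150.4, 103.6 and 91.7 FPKM in ZnO 1, 2 and 3. Of the 9 yolk sac markers tested, 6 had that order. APOA1 alone made up most of the yolk sac sum, at 5144, 7017 and 3019 FPKM in the controls and 6413, 2761 and 4610 FPKM in ZnO 1, 2 and 3. Blood sums had the opposite order, at 1382, 1042 and 1286 FPKM in the controls and 703, 1166 and 2160 FPKM in treated libraries. That order held for 6 of 7 blood markers tested. Crest sums were also lowest in control 2 and ZnO 1 within their groups. The part of these tissues in the members' levels was not tested.

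**Figure D3:**
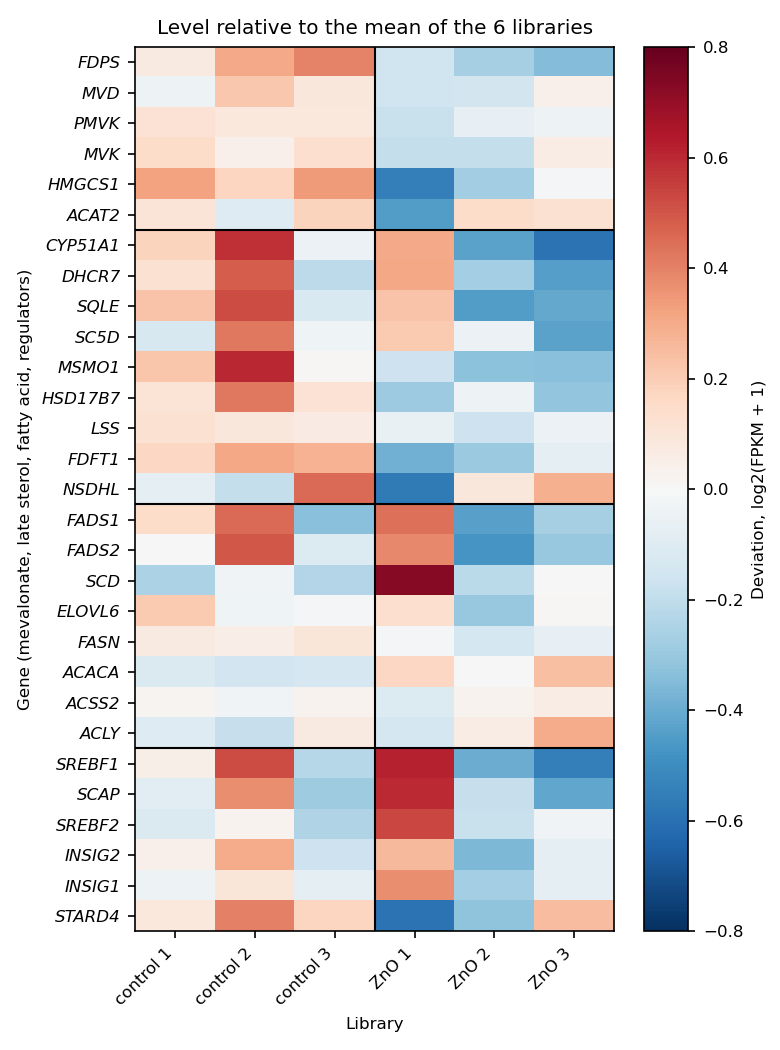
Deviation of each gene from its mean over the 6 libraries on the log2(FPKM + 1) scale (colour), for the 29 genes in rows by class and the libraries in columns. Control 2 and ZnO 1 are both red for SQLE, CYP51A1, DHCR7, FADS1, FADS2 and 5 regulators, while HMGCS1, FDPS and FDFT1 are red in the controls and blue in ZnO 1.

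Fatty acid genes showed no common direction. Their summed level was 200.02, 221.5 and 195 FPKM in control 1, 2 and 3, and 239.9, 179.9 and 207 FPKM in ZnO 1, 2 and 3, so the groups overlapped. ACACA (gene ID 396504), acetyl-CoA carboxylase, the committing enzyme, had 13.9, 13.5 and 13.7 FPKM in the controls, against 17.1, 15.1 and 18.04 FPKM in treated libraries. The controls were nearly equal and all treated libraries lay above them, with a log2 fold change of 0.27 ± 0.13 SE (interval -0.04 to 0.57, limma adjusted p = 0.933). FASN (gene ID 396061), the synthase that uses the product of ACACA, lay on the other side. It had 18.7, 18.5 and 19.1 FPKM in the controls, against 17.6, 16.04 and 17.0 FPKM in treated libraries, 10.2% lower in the mean, and the interval of its log2 fold change, -0.44 to 0.14, included 0.

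SCD (gene ID 395706), the desaturase that makes monounsaturated fatty acids, had 21.8, 25.6 and 22.0 FPKM in the controls, against 43.8, 22.4 and 26.1 FPKM in ZnO 1, 2 and 3. The higher treated mean came mostly from ZnO 1, and without it the log2 fold change was 0.07 in place of 0.34. ACLY, which supplies cytosolic acetyl-CoA from citrate, had 52.1 ± 4.97 and 58.0 ± 8.95 FPKM (SD, n = 3), and ACSS2, which supplies it from acetate, had 12.1 ± 0.286 and 12.002 ± 0.798 FPKM. Both overlapped between groups. The elongase gene ELOVL6 had 13.9 ± 1.41 and 12.9 ± 2.08 FPKM. FADS1 and FADS2, the desaturases for polyunsaturated fatty acids, were highest in control 2 and ZnO 1 within their groups, as DHCR7 was. FADS2 had 46.1, 65.1 and 42.5 FPKM in controls, 60.2 FPKM in ZnO 1, and 32.9 and 37.1 FPKM in ZnO 2 and ZnO 3, and FADS1 ranged from 14.7 to 26.2 FPKM in the controls, against from 13.7 to 25.9 FPKM in treated libraries.

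The summed level of the regulators differed more within the treated group than between the group means. It was 181, 225 and 160.3 FPKM in control 1, 2 and 3, and 266.8, 155.9 and 161 FPKM in ZnO 1, 2 and 3. The treated mean was 1.03 times the control mean, and 15.96% lower in ZnO 2 and ZnO 3 alone. SREBF2 (gene ID 395304), which encodes the SREBP that mainly drives sterol genes in mammals, had 61.4, 68.1 and 56.2 FPKM in controls, 96.8 FPKM in ZnO 1, and 58.9 and 65.3 FPKM in ZnO 2 and ZnO 3. ZnO 1 was above every control and the other treated libraries were within the control range. The log2 fold change was 0.22 (interval -0.27 to 0.70) and 0.01 without ZnO 1. SREBF1 (gene ID 373915), whose main products drive fatty acid genes, had 39.6, 55.5 and 32.6 FPKM in the controls, against 59.3, 28.9 and 25.9 FPKM in ZnO 1, 2 and 3. ZnO 2 and ZnO 3 lay under the lowest control and ZnO 1 above the highest. The log2 fold change was -0.22 with a wide interval (-0.98 to 0.53), and it depended on the library left out. It was -0.58 without ZnO 1 (limma adjusted p = 0.305), -0.26 without control 1 and -0.39 without control 3. Without control 2, ZnO 2 or ZnO 3 it was -0.02, -0.08 and -0.004.

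SCAP (gene ID 420380), the escort protein of both SREBPs, had 39.1, 54.0 and 33.9 FPKM in the controls, against 63.5, 36.5 and 30.9 FPKM in ZnO 1, 2 and 3. Its mean difference was 0.00 on the log2 scale, and -0.30 without ZnO 1. INSIG1 (gene ID 420442), both a brake on SREBP transport and a known SREBP target in mammals, had 15.8, 17.4 and 15.3 FPKM in the controls, against 21.3, 13.3 and 15.4 FPKM in treated libraries. INSIG2 (gene ID 424276), its relative, had 19.7, 23.7 and 16.9 FPKM in the controls, against 23.1, 14.7 and 18.03 FPKM in treated libraries. Both had ZnO 1 as the highest treated library and ZnO 2 as the lowest of all. Their log2 fold changes of 0.02 and -0.12 had intervals of -0.41 to 0.45 and -0.58 to 0.35. STARD4 (gene ID 769322), a sterol carrier protein, was lowest in ZnO 1, as HMGCS1 was. It had 5.04, 6.53 and 5.41 FPKM in the controls, against 2.78, 3.56 and 5.76 FPKM in ZnO 1, 2 and 3. ZnO 3 lay inside the control range. The log2 fold change was -0.44 (interval -0.96 to 0.08), and -0.26 without ZnO 1. STARD4 is also Z-linked in GRCg7b.

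**Figure D4:**
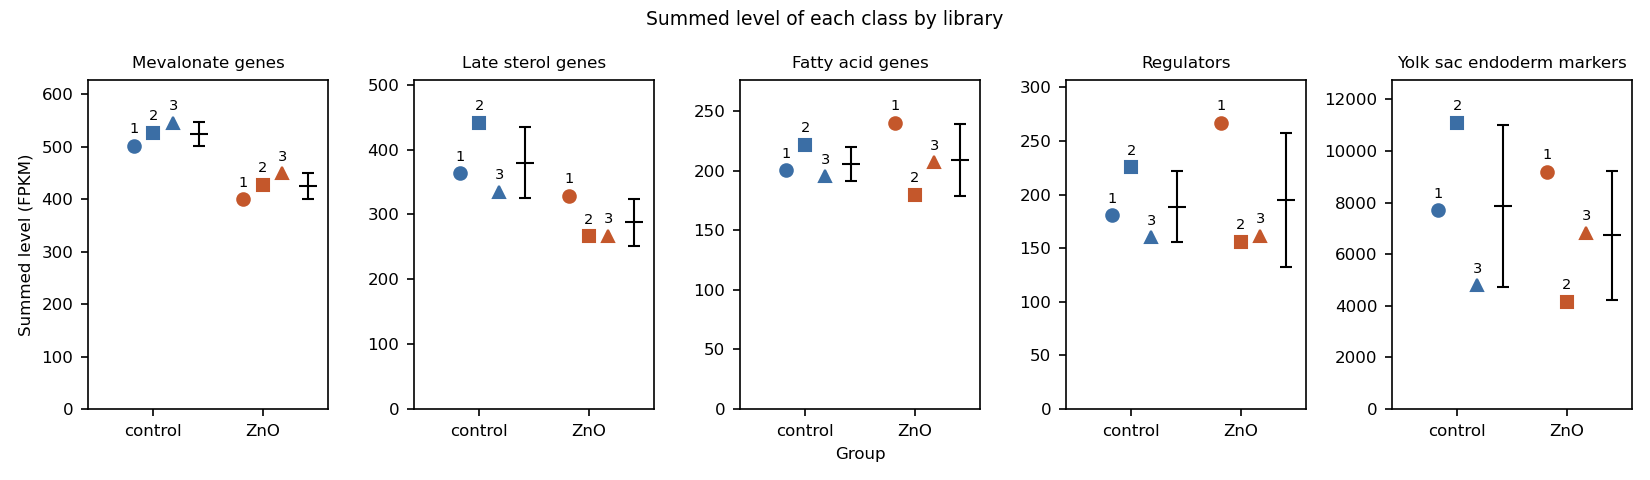
Summed level in FPKM (vertical axis from 0) of each class and of the 10 yolk sac endoderm markers in each library, numbered by replicate, with the group mean and SD (n = 3) beside the points. Groups do not overlap for the mevalonate genes (399.9 to 449.8 against 501 to 545 FPKM) or, on the FPKM scale only, the late sterol genes (267 to 329 against 335 to 441 FPKM), and overlap in the other panels.

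Other genes around these pathways were described from lists, naming at most 2 genes of each by the smallest unadjusted p. None of their genes passed the threshold in limma. Among all genes tested 56.1% were lower, with 2.61% lower and 3.06% higher at an unadjusted p under 0.05. Of 8 further genes of sterol synthesis, all 8 had a lower mean log2 level in treated embryos (6 without ZnO 1) and 0 had an unadjusted p under 0.05. ERG28, known from yeast as a scaffold of the demethylation complex, had 57.9, 75.8 and 57.1 FPKM in the controls, against 45.1, 53.7 and 45.4 FPKM in treated libraries. IDI2, an isopentenyl diphosphate isomerase gene, had 47.1, 43.4 and 51.7 FPKM in the controls, against 25.4, 37.8 and 41.2 FPKM in treated libraries. Every treated library was below every control in both, with adjusted p of 0.886 and 0.887. Of 10 genes that use isoprenoids, 7 were lower and 3 higher, with 0 at an unadjusted p under 0.05. GGPS1, which makes geranylgeranyl diphosphate, had 14.8 ± 1.37 and 11.3 ± 3.31 FPKM (SD, n = 3), and the farnesyltransferase subunit gene FNTA had 10.3 ± 0.611 and 8.45 ± 1.72 FPKM.

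Of 16 genes of sterol transport and storage tested, 10 were higher and 6 lower in treated embryos (median log2 fold change 0.08). At an unadjusted p under 0.05 there were 3, all higher, where 3.06% of all genes were higher at that level. Without ZnO 1 the median was 0.01, with 8 of 16 lower, where 51.3% of all genes were lower. The list thus had no common direction without that library. SOAT1, which esterifies cholesterol for storage, had 11.1, 11.4 and 7.75 FPKM in the controls, against 27.1, 12.1 and 17.8 FPKM in ZnO 1, 2 and 3. LRP2, an endocytic receptor for lipoproteins and other ligands, had 11.7, 12.8 and 9.82 FPKM in the controls, against 21.5, 12.9 and 21.5 FPKM in treated libraries. Treated libraries lay above all controls in both, ZnO 2 only just (log2 fold changes 0.80 ± 0.28 SE and 0.63 ± 0.22 SE, limma adjusted p = 0.827 for each). Those fold changes were 0.52 and 0.51 without ZnO 1. The third was ABCA1, the cholesterol export pump, named after its values were seen. It had 1.31, 1.10 and 0.884 FPKM in the controls, against 1.76, 1.72 and 3.58 FPKM in treated libraries, and it is Z-linked in GRCg7b, as FNTA is.

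Of 12 genes for SREBP processing, sterol sensing or related transcription factors, 6 were lower and 6 higher. Only 1 had an unadjusted p under 0.05, where 2.61% of all genes were lower and 3.06% higher at that level. That gene was RXRA, a nuclear receptor that pairs with the sterol-sensing LXR proteins, at 5.89, 4.1999 and 6.11 FPKM in the controls, against 7.48, 7.03 and 8.86 FPKM in treated libraries (limma adjusted p = 0.861). Of 21 further fatty acid and glycerolipid genes tested, 10 were lower and 11 higher. Against the same shares of all genes, 1 had an unadjusted p under 0.05. That was ACSL1, which activates long-chain fatty acids, at 12.4, 12.6 and 12.7 FPKM in the controls, against 13.4, 17.4 and 23.2 FPKM in treated libraries (limma adjusted p = 0.881). Its relative ACSL4 had 13.9 ± 1.34 and 11.2 ± 0.982 FPKM, with every treated library below every control. Of 13 genes of fatty acid oxidation, 8 were lower and 5 higher, with 0 at an unadjusted p under 0.05, and ETFDH (20.8 ± 0.454 and 17.7 ± 3.87 FPKM) and CPT1A (8.58 ± 0.655 and 9.74 ± 0.691 FPKM) overlapped between groups.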

How the data were processed

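Per the labels' protocols, RNA from whole embryos was extracted with Trizol, prepared with an Illumina TruSeq kit and sequenced as paired ends. The submitters' processing notes name Bowtie2 2.2.3, TopHat2 2.0.12 and HTSeq 0.6.1, and mm10, a mouse build, as the only build, while 19704 of 24098 gene numbers (81.8%) are chicken genes in RefSeq GRCg7b. The authors deposited 1 file per library with a value per gene that behaves as FPKM. These values are whole multiples of a step per gene and library, which gave the depths and whole reads (within 0.005) for all 13311 genes tested. The sources used here do not state whether strand was used. Use of the replicate numbers is described with the alternatives.

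Genes averaging 1 FPKM or more entered a limma 3.58.1 fit (R 4.3.3, mean-variance trend) on log2(FPKM + 1), a scale that understates changes of low genes, and p-values were adjusted by Benjamini-Hochberg over the 13311 genes and called under 0.05. The script was tested on simulated data. With 3 against 3 libraries an exact permutation test cannot go below p = 0.1. Values in all libraries are given for the 3 genes per class with the smallest unadjusted p and for all regulators, and for other genes where library order mattered. Members and lists were chosen with earlier results of these data known. Lists were described by counts and medians, with no test. Promoter sequences were not analysed here. A gene that the rule for these lists would name is not reported here.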

Additional observations from a re-analysis of the deposited data

How the results depend on the processing

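The 15 alternatives were other pseudocounts, filters and scalings, no trend, limma-voom, the replicate block, and each library left out. No member passed in any of them. Leaving out single libraries gave 0 to 4 genes past the threshold, 4 without ZnO 1. Members wholly below controls numbered 8 to 13 when a library was left out and 5 on the TPM scale. Members wholly above numbered 1 to 2 (SCD joining ACACA without control 2 or ZnO 2) and 2 on the TPM scale. Groups separate more easily with fewer libraries. The share of all genes wholly below controls was counted only with 6 libraries (5.89%) and without ZnO 1 (18.2%). The other counts have no such share beside them and are not compared with the 8 members found with 6 libraries. Over left-out libraries the median log2 fold change ranged from -0.27 to -0.16 for mevalonate genes, -0.48 to -0.26 for late sterol genes, -0.07 to 0.01 for fatty acid genes and -0.27 to 0.06 for regulators. The direction turned for INSIG1 without control 3 (-0.02) or ZnO 1 (-0.16), with a range of -0.16 to 0.16. It turned for INSIG2 without control 2 (0.005) or ZnO 2 (0.034), with a range of -0.27 to 0.034, and for SCAP without control 1 (-0.04), control 3 (-0.14) or ZnO 1 (-0.30), with a range of -0.30 to 0.21. These values lie near 0 with 6 libraries, and the cause was not tested. The labels number the replicates 1 to 3 in both groups, but same-numbered libraries did not deviate together throughout (correlations -0.03, -0.37 and 0.41), so the numbers are not taken as pairs. With the replicate block, 0 genes passed and 758 had an unadjusted p under 0.05, against 754.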
